A study of Homo sapiens with 12 samples.

Results

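The 10 genes described here set the supply and the removal of deoxynucleotides (dNTPs), the building blocks of DNA. The rule names them by symbol and uses no measured value, although earlier results of these data were known when they were chosen: RRM1, RRM2 and RRM2B (the subunits of ribonucleotide reductase), SAMHD1, DCTPP1 and NUDT1 (hydrolases of dNTPs or of damaged nucleotides), DCK and DGUOK (deoxynucleoside kinases), and NT5C and NT5M (deoxynucleotidases). They are 10 of 61541 genes in a table of RNA sequencing counts, and all 10 were among the 16768 genes tested. The study's question, per its title and design text, was how A549 cells without thymidylate synthase fare when they grow beside other cells.

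A549 is a line from a human lung adenocarcinoma. There were 4 groups of 3 libraries, all taken 14 days after transduction and with no drug treatment: A549 with the non-targeting guide gNTC1 (control, alone), the same guide in co-culture (control, co-cultured), A549 in which Cas9 was directed at TYMS (knockout, alone), and that knockout in co-culture. Parental A549 cells were the neighbours of the co-cultured knockout, per the design text. The labels used here give neither the partner of the co-cultured control cells nor whether cells were sorted apart ahead of RNA isolation. They also do not say whether a group came from separate cultures, so p-values measure the spread between these libraries, which may be technical. A library of co-cultured cells may hold RNA of its partner cells. In these bulk libraries fewer cells of a kind and less RNA per cell cannot be told apart.

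Ribonucleotide reductase turns ribonucleotides into deoxyribonucleotides and is the main source of dNTPs in a dividing cell. RRM1 carries the catalytic and regulatory sites, and a partner subunit supplies the radical that the reaction needs. In S phase the partner is RRM2, and RRM2B, a target of p53, is the partner known for DNA repair and for mitochondrial DNA in cells that are not dividing. SAMHD1 breaks dNTPs down to deoxynucleosides, whereas DCK in the cytosol and DGUOK in mitochondria return deoxynucleosides to the pool. TYMS makes thymidylate from deoxyuridylate, and its loss leaves a cell dependent on salvaged thymidine.

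The subunits are encoded on different chromosomes, so the sequence before the start of RRM1 is shown with short stretches from RRM2 and SAMHD1 to let their promoter elements be compared. All are from RefSeq's table on GRCh38.p14, which had a window for 9 of the 10 genes, and the 3 genes and the elements were chosen after the values were seen. Capitals mark CCAAT, the box bound by NF-Y, and TTNNCGC, a core of E2F sites, both searched on either strand in the 250 bases before the start. The RRM1 window (chr11:4094435-4094684, + strand) lies outside the exons of RRM1. The RRM2 stretches are chr2:10122608-10122633, chr2:10122638-10122663 and chr2:10122665-10122690 (+ strand), and the SAMHD1 stretch is chr20:36951735-36951764 (- strand). They are kept short because their windows fall partly or wholly in exons of a longer transcript of the same gene.
RRM1: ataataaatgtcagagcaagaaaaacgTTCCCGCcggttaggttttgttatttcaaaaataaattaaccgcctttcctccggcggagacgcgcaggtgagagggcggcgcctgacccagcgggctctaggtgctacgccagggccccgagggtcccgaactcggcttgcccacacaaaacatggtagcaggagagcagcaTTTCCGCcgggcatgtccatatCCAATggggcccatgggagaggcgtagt
RRM2 box 1: aggcgcagCCAATgggaagggtcgga
RRM2 box 2: tggcacagCCAATgggaagggccggg
RRM2 box 3: caccaaagCCAATgggaagggccggg
SAMHD1 boxes: caggaggCCAATaggctgCCAATactcctt

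The RRM1 window held 1 CCAAT and 2 TTNNCGC matches, none of them overlapping. RRM2 had 3 CCAAT boxes, each followed by the same bases gggaagg, and no match to TTNNCGC in the window used. RefSeq listed 2 windows for RRM2, and only the one whose start lies farther downstream is described. SAMHD1 had 2 CCAAT boxes and no TTNNCGC match. GGGCGG, a GC box, was found 1 time in RRM1 and not in the windows used for RRM2 and SAMHD1. Of 35116 windows of 250 bases, 32% held CCAAT, 21.7% TTNNCGC and 42.6% GGGCGG. These are letter matches and no evidence of binding.

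TYMS, the targeted gene, was at 95.4 ± 5.28 CPM (counts per 1e6 counts after TMM scaling, mean ± SD, n = 3) in the lone control and 93.4 ± 2.67 in the co-cultured control. It was at 20.8 ± 0.551 CPM in the lone and 11 ± 0.361 in the co-cultured knockout, so no knockout library overlapped a control library. Library totals ran from 14921371 to 35723762 counts. Other genes that mark cell identity also separated the knockout from the control libraries. CDKN2A, a cell cycle inhibitor in a region that A549 is known to have lost, stood at 99.2 ± 22.9 CPM in lone and 72.4 ± 15.5 CPM in co-cultured control cells, and at 0 in every lone knockout library and 0 to 0.119 in the co-cultured ones. Its neighbour MTAP was at 59.5 ± 18.2 and 59.7 ± 5.73 CPM in the controls and at 0.581 ± 0.0568 and 0.471 ± 0.163 in the knockout groups. CDKN2B was at 0 in all 6 knockout libraries. The epithelial gene EPCAM was at 104 ± 13.6 and 101 ± 7.29 CPM in the controls and below 1 CPM in every knockout library. The libraries labelled control thus go against that property of A549, and the effect of the TYMS guide cannot be told apart from other differences between the 2 cell populations in any comparison of knockout with control below. A list for A549 as lung adenocarcinoma epithelium held 12 markers: keratins, EPCAM, CDH1 and detoxification enzymes. Of these, 12 reached 1 CPM in every control library and 11, all but EPCAM, in every knockout library. Of 6 fibroblast markers only COL1A1 reached 1 CPM in every library. The summed level of 5 leukocyte markers was 4.06 to 6.23 CPM in the lone control, 1.84 to 4.15 in the co-cultured control, 0.796 to 0.93 in the lone knockout and 2.83 to 4.41 in the co-cultured knockout, nearly all of it CD14, with CD3E at 0 in all 12 libraries. That of 4 endothelial markers was 2.13 to 2.60 and 1.83 to 2.73 CPM in the lone and the co-cultured control, and 0.0845 to 0.398 and 0.302 to 0.634 CPM in the knockout groups. The part of these differences in the results below was not tested.

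Libraries of each group also differed by transcript GC content. Over 10298 genes, the rank correlation of a library's deviation from its group mean with GC went from -0.840 (co-cultured knockout replicate 3) to 0.829 (co-cultured knockout replicate 2). Such a correlation runs over genes, and genes are no independent replicates. The 10 genes span 36.4% GC (RRM2B) to 66.6% GC (NT5C), so results are given as fitted with TMM scaling and, as the alternative, with GC offsets added to the same fit. The offsets were fitted to deviations from a gene's mean over all 12 libraries, so they also take out trends with GC between groups. In lone knockout against lone control the rank correlation of log2 fold change with GC was -0.386 over 16505 genes. How much of it is technical was not tested. A gene is called at an adjusted p under 0.05 in edgeR's quasi-likelihood test with Benjamini-Hochberg adjustment over all 16768 genes. Log2 fold changes carry a standard error (SE) derived from the F statistic of that test, as were the 95% intervals. CPM values, and overlap between libraries read from them, are without GC correction unless stated.

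RRM2B, the p53-dependent subunit (chr8:102204502-102239118, GENCODE 29 on GRCh38, as for all genes below), was the member that rose in the knockout, and the only one called higher with TMM scaling. In the lone control it had 4.40, 2.58 and 3.55 CPM in replicates 1 to 3, from 71, 42 and 65 counts. The co-cultured control had 5.16, 3.10 and 3.01 CPM, and the lone knockout 33.6, 23.8 and 19.3 CPM. Every lone knockout library lay above every control library. In the co-cultured knockout RRM2B stood at 10.0, 5.75 and 31.9 CPM, all above the controls, with replicate 3 in the range of the lone knockout and the others below it.

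The log2 fold change of RRM2B in knockout against control was 2.86 (SE 0.54, 95% interval 1.71 to 4.02, adjusted p = 0.000591), or 7.29-fold, when cultured alone. Co-cultured it was 2.09 (SE 0.52, adjusted p = 0.00469), or 4.26-fold. With GC offsets the values were 2.22 and 1.82, both called. Between the co-cultured and the lone knockout the log2 difference was -0.69 (SE 0.49, 95% interval -1.74 to 0.37, adjusted p = 0.36), a comparison that turns on replicate 3. Without it the difference was -1.70 (adjusted p = 0.00138), its difference from that in control cells (the interaction) was -1.78 (adjusted p = 0.0136), and the rise over the co-cultured control was 1.08 (adjusted p = 0.0109). With GC offsets and all libraries the difference was -0.38 (adjusted p = 0.296). That replicate is also the library with the lowest rank correlation of deviations with GC, and the share of the trend in its RRM2B value was not tested beyond these fits. Replicates 1 and 2 of that group lay on the other side, at 0.538 and 0.829. Fits without replicate 3, here and below, carried no GC offsets, so they rest on libraries with that opposite trend.

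**Figure D1:**
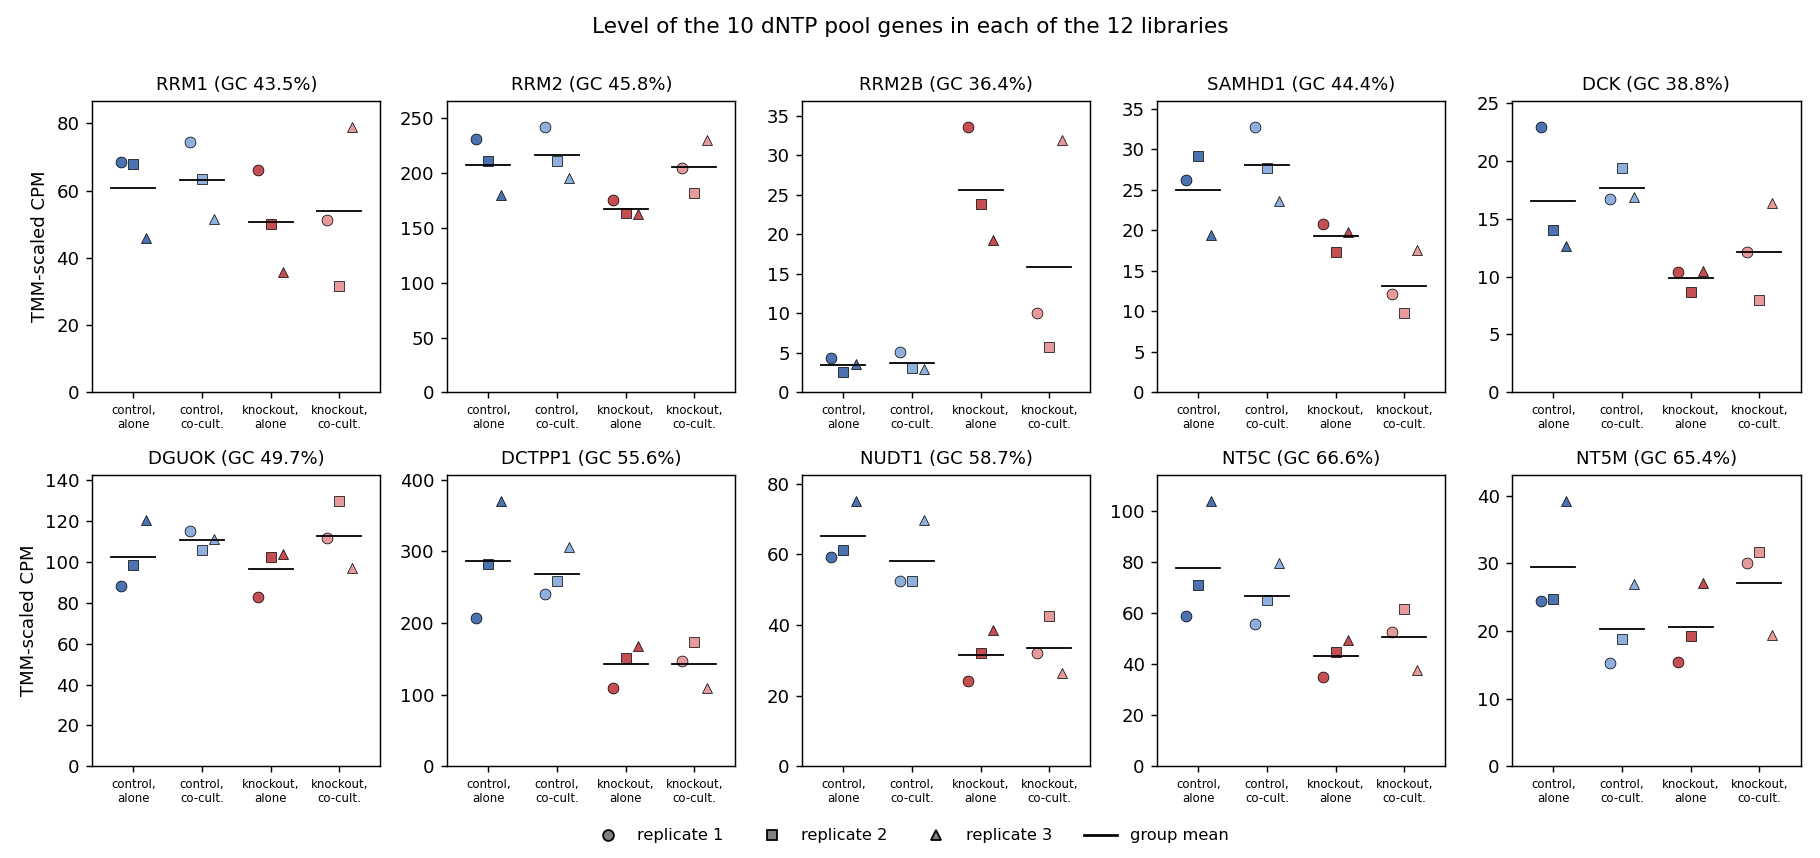
TMM-scaled CPM (y axes, linear from 0) of the 10 genes in the 12 libraries; each point is a library, its shape the replicate number, and the bar the mean of 3. RRM2B is at 2.58 to 5.16 CPM in the control libraries and at 5.75 to 33.6 in the knockout libraries. RRM1 overlaps between all groups, and RRM2 in the lone knockout (162 to 176) sits just below the controls (180 to 242).

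RRM2, the S phase subunit (chr2:10120698-10131419), was the most abundant of the 3 subunits. The lone control had 231, 211 and 180 CPM, the co-cultured control 242, 211 and 196 CPM. The lone knockout had 176, 164 and 162 CPM, below every control library but by a small margin. The co-cultured knockout, at 205, 181 and 230 CPM, overlapped both controls. Corrected for GC it stood at 200, 186 and 198 CPM, below every control library (219 to 247 CPM). The log2 fold change in the lone knockout was -0.31 (SE 0.14, 95% interval -0.62 to -0.0022, adjusted p = 0.0789), which missed the threshold in edgeR. DESeq2 called it (-0.36, adjusted p = 0.0112), as did edgeR with GC offsets (-0.70, adjusted p = 7.4e-07). Of the edgeR fits that left out 1 library, only that without replicate 3 of the lone control called it (-0.43, adjusted p = 0.0317). Those fits ran from -0.43 to -0.23 (adjusted p = 0.0317 to 0.2). In co-culture the value was -0.07 (SE 0.14, adjusted p = 0.695), and -0.22 with GC offsets (adjusted p = 0.0139). The interaction was 0.24 (adjusted p = 0.505) with TMM scaling and 0.47 (adjusted p = 0.013) with GC offsets.

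RRM1, the catalytic subunit (chr11:4094707-4138876), was not called in any comparison with TMM scaling. Its values were 68.6, 68.1 and 46.0 CPM in the lone control and 74.5, 63.4 and 51.6 in the co-cultured control. In knockout cells they were 66.2, 50.1 and 35.7 alone and 51.2, 31.7 and 78.9 co-cultured, where the highest and the lowest of all 12 libraries stood. All 4 groups overlapped on this scale. Corrected for GC, the lone knockout (31.9 to 48.6 CPM) lay below every control library (60.7 to 77.4 CPM). The co-cultured knockout, at 38.0 to 63.6 CPM, overlapped both. The log2 fold change in knockout against control was -0.26 (SE 0.30, 95% interval -0.92 to 0.40, adjusted p = 0.478) alone and -0.23 (SE 0.30, adjusted p = 0.558) co-cultured. With GC offsets the lone knockout was called lower (-0.76, adjusted p = 0.00183), and the co-cultured one was at -0.36 (adjusted p = 0.0926).

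Ratios of genes within a library do not depend on the scaling between libraries. Counts were taken per kb of exon for this purpose, with all annotated exons of a gene merged. The level of a ratio depends on those lengths, its difference between groups does not. RRM2B was at 0.0161 of RRM2 in the lone control (geometric mean of 3 libraries) and at 0.0163 in the co-cultured control. It was at 0.143 in the lone knockout and at 0.0576 in the co-cultured knockout. Across both cultures the log2 ratio of RRM2B to RRM2 was 2.49 higher in the knockout (exact permutation test within culture, two-sided, 400 arrangements, p = 0.005, the smallest this design can give; adjusted over 5 ratios, p = 0.0125). The ratio of RRM2B to RRM1 was 2.60 higher (exact p = 0.005, adjusted p = 0.0125), with all 6 knockout libraries above all 6 control libraries. Transcripts of RRM2 per kb were 2.7 times those of RRM1 in both control groups, 2.67 times in the lone and 3.18 times in the co-cultured knockout. The difference of 0.11 in that log2 ratio was within the spread (exact p = 0.565).

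**Figure D2:**
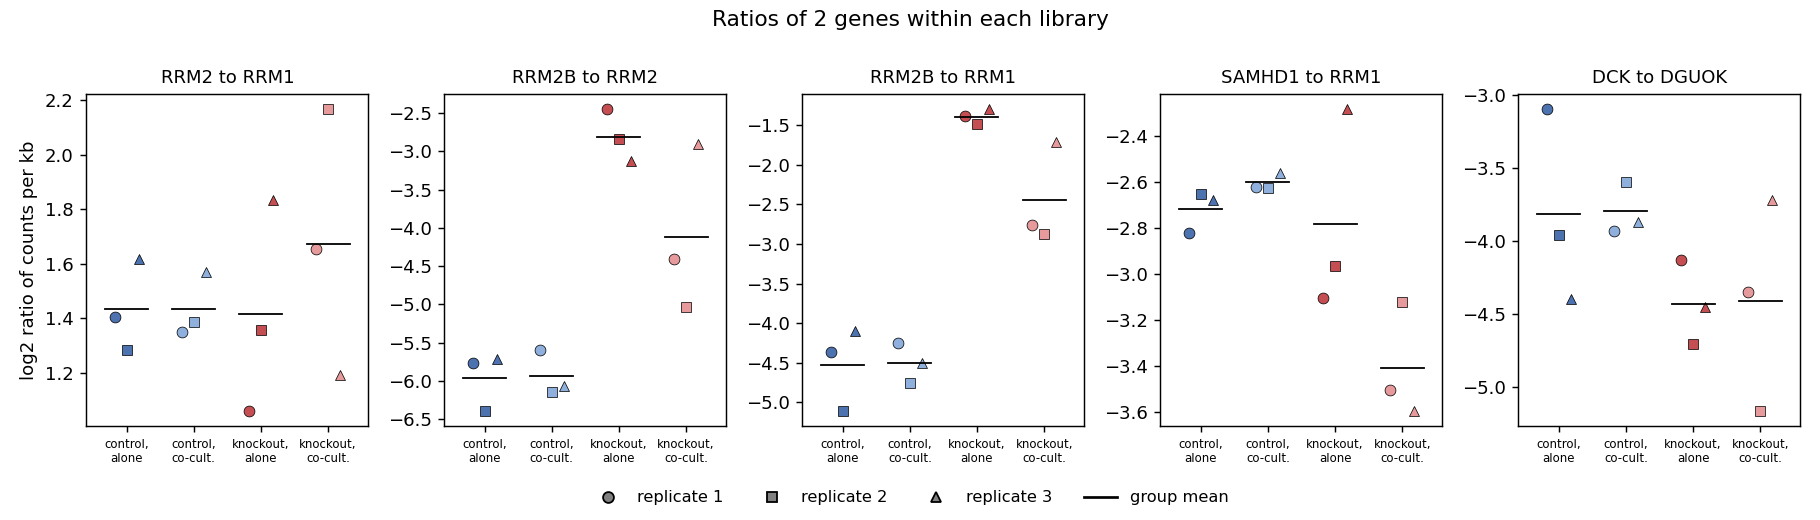
Log2 ratios of counts per kb of exon for 5 pairs of genes within each library (y axes; points are libraries, shapes replicates, bars the means of 3). RRM2B relative to RRM2 and to RRM1 is higher in all 6 knockout libraries than in all 6 control libraries, while RRM2 relative to RRM1 overlaps between all groups.

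SAMHD1, the dNTP triphosphohydrolase (chr20:36889773-36951901), was lower in the co-cultured knockout. It had 26.2, 29.2 and 19.4 CPM in the lone control and 32.7, 27.7 and 23.6 in the co-cultured control. The lone knockout stood at 20.7, 17.3 and 19.8 CPM and overlapped the lone control. With GC correction it did not (14.8 to 17.9 against 25.3 to 32.8 CPM). The co-cultured knockout, at 12.1, 9.80 and 17.6 CPM, lay below every control library. Against the co-cultured control SAMHD1 fell by 1.09 on the log2 scale (SE 0.23, adjusted p = 0.00149), a 2.13-fold lower level, and by 1.21 with GC offsets. Alone the log2 fold change was -0.37 (SE 0.23, adjusted p = 0.179), against -0.81 (adjusted p = 0.000159) with GC offsets. The interaction was -0.72 (SE 0.32, adjusted p = 0.254), so the fits with all libraries did not separate the 2 cultures. Without co-cultured knockout replicate 3 it was -0.98 (adjusted p = 0.0235), and co-cultured against lone knockout -0.81 (adjusted p = 0.00874), where all libraries gave -0.55 (adjusted p = 0.125). The log2 ratio of SAMHD1 to RRM1 was 0.44 lower in the knockout as the mean of both cultures, which missed the threshold (-0.44, exact p = 0.055, adjusted p = 0.0688). The cultures differed in it. Alone it was -0.067 (exact permutation p = 0.9). Co-cultured it was -0.81 (exact permutation p = 0.1, the smallest that 3 against 3 libraries can give).

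DCTPP1 and NUDT1, which clear unusual or oxidised nucleotides from the pool, were lower in the knockout in both cultures and in both fits. DCTPP1, which hydrolyses dCTP and its modified forms (chr16:30423619-30430075), had 207, 283 and 370 CPM in the lone control and 241, 258 and 306 in the co-cultured control. The knockout stood at 109, 151 and 168 CPM alone and at 147, 174 and 109 co-cultured, so that no knockout library reached a control library. DCTPP1 fell by 1.01 on the log2 scale alone (SE 0.24, adjusted p = 0.00281) and by 0.91 co-cultured (SE 0.23, adjusted p = 0.00619), and with GC offsets by 0.66 and 0.93. NUDT1, the hydrolase of oxidised purine dNTPs also called MTH1 (chr7:2242222-2251146), went from 59.3, 61.3 and 75.0 CPM in the lone control to 24.1, 32.2 and 38.6 in the lone knockout. Its co-cultured values were 52.4, 52.5 and 69.9 CPM in the control and 32, 42.4 and 26.5 in the knockout, again without overlap. It fell by 1.05 alone (SE 0.21, adjusted p = 0.00108) and by 0.79 co-cultured (SE 0.21, adjusted p = 0.0072), and with GC offsets by 0.46 and 0.64.

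DCK, which phosphorylates deoxycytidine, deoxyadenosine and deoxyguanosine (chr4:70992538-71030914), was lower in the lone knockout. It had 22.9, 14.0 and 12.7 CPM in the lone control and 16.7, 19.4 and 16.9 in the co-cultured control. The lone knockout stood at 10.4, 8.65 and 10.5 CPM, below all control libraries, and the co-cultured knockout at 12.1, 7.99 and 16.4 CPM. DCK fell by 0.74 alone (SE 0.27, adjusted p = 0.0338). The call was lost without lone control replicate 1 (-0.44, adjusted p = 0.166), without lone knockout replicate 1, 2 or 3 (-0.79, -0.66 and -0.81, adjusted p = 0.0638, 0.106 and 0.0542), and with library size in place of TMM (-0.62, adjusted p = 0.153). GC offsets gave -1.34 (adjusted p = 3.6e-06). Co-cultured, the log2 fold change was -0.54 (SE 0.27, adjusted p = 0.113), -0.63 (adjusted p = 0.00263) with GC offsets and -0.82 (adjusted p = 0.0157) without co-cultured knockout replicate 3.

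DGUOK, the mitochondrial kinase of purine deoxynucleosides (chr2:73926826-73958961), was called in no comparison under either scaling. It lay between 82.7 and 130 CPM in all 12 libraries, and its log2 fold change in the lone knockout was -0.09 (SE 0.15, 95% interval -0.42 to 0.24, adjusted p = 0.638). In co-culture it was 0.03 (SE 0.15, 95% interval -0.31 to 0.36, adjusted p = 0.9). The log2 ratio of DCK to DGUOK was 0.61 lower in the knockout within culture (-0.61, exact p = 0.05, adjusted p = 0.0688). On counts corrected for GC it was -0.76 (exact p = 0.005, adjusted p = 0.00833).

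The deoxynucleotidases NT5C (cytosolic, chr17:75130225-75131795) and NT5M (mitochondrial, chr17:17303335-17347663) remove the phosphate from deoxynucleoside monophosphates. They have the highest GC content of the 10 genes, 66.6% and 65.4%, and their direction in the lone knockout turned with the GC offsets. NT5C had 58.9, 70.9 and 104 CPM in the lone control and 55.8, 65.3 and 79.5 in the co-cultured control. Knockout cells had 35.1, 44.6 and 49.6 CPM alone and 52.6, 61.7 and 37.8 CPM co-cultured. The lone knockout lay below all control libraries, and NT5C fell by 0.85 (SE 0.24, adjusted p = 0.00801) with TMM scaling. GC offsets gave a log2 fold change of 0.33 in the other direction (adjusted p = 0.0101). In co-culture the values were -0.40 (SE 0.23, adjusted p = 0.176) and 0.08 (adjusted p = 0.502).

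NT5M stood at 24.4, 24.7 and 39.2 CPM in the lone control and at 15.2, 18.8 and 27.0 in the co-cultured control. It was at 15.3, 19.2 and 27.1 CPM in the lone and at 30.1, 31.7 and 19.3 in the co-cultured knockout, with overlap between all 4 groups. Alone the log2 fold change was -0.52 (SE 0.29, adjusted p = 0.135) with TMM scaling, and -0.79 (adjusted p = 0.0468) without lone knockout replicate 3. Over all edgeR fits that left out 1 library it ran from -0.79 to -0.29 (adjusted p = 0.0468 to 0.444). With GC offsets it was 0.55 (adjusted p = 0.00243). Co-cultured it was 0.41 (SE 0.28, adjusted p = 0.251) and 0.86 (adjusted p = 5.3e-05). The interaction was 0.93 (SE 0.40, adjusted p = 0.245), and 1.13 (adjusted p = 0.0407) without co-cultured knockout replicate 3.

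**Figure D3:**
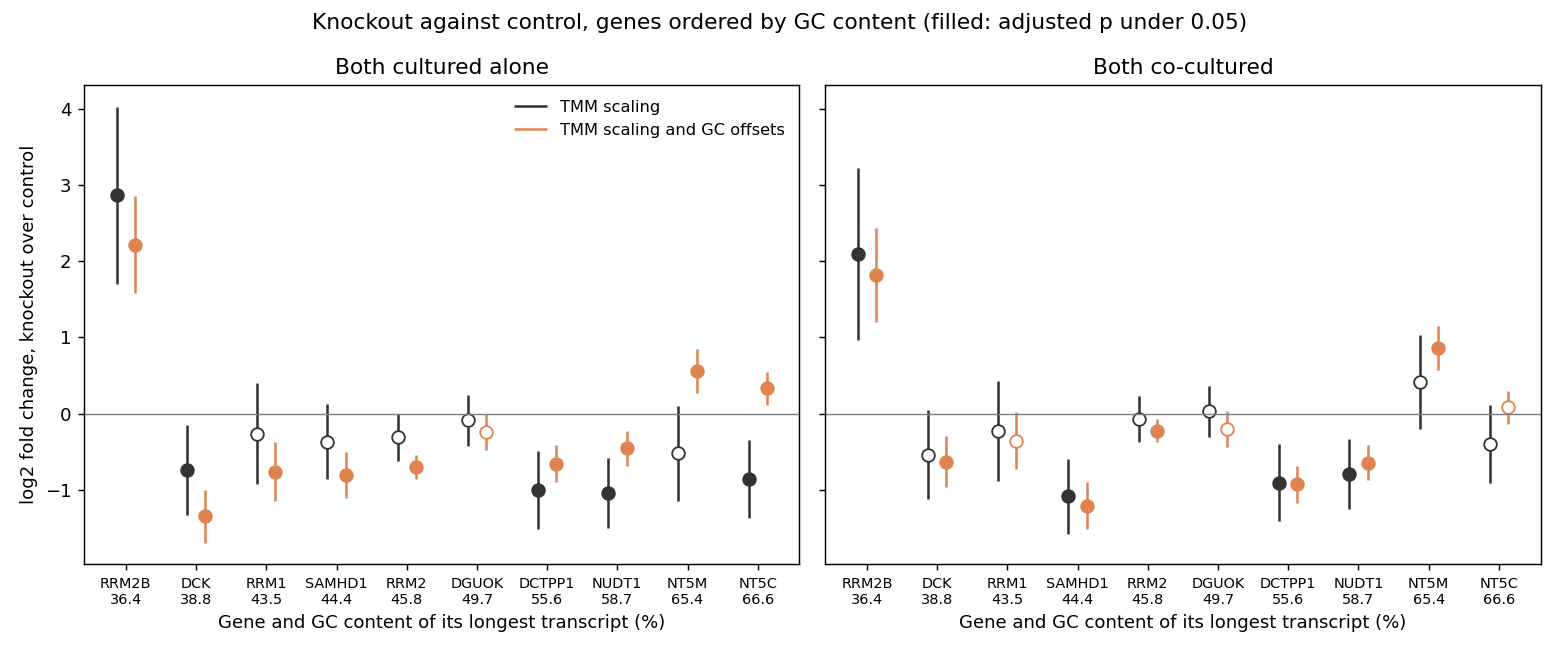
Log2 fold change of knockout over control (y axes) for the 10 genes ordered by the GC content of their transcripts, with both cultured alone (left) and both co-cultured (right); vertical lines are 95% intervals, filled points are called at an adjusted p under 0.05. RRM2B is above 0 in both fits and both panels, DCTPP1 and NUDT1 are below 0 throughout, and NT5C and NT5M change sign in the left panel when GC offsets are added.

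In the lone knockout 5 of the 10 genes were called, 1 higher and 4 lower, where 56.6% of all genes tested were called (28% higher and 28.6% lower). The members' count was thus near the background. Their median log2 fold change was -0.45, and that of all 16768 genes tested was 0.09. With GC offsets 9 were called, 3 higher and 6 lower, against 61.9% of all genes (31% higher and 30.9% lower). In co-culture 4 members were called against the control, RRM2B higher and SAMHD1, DCTPP1 and NUDT1 lower, where 49.4% of all genes were (24.1% higher and 25.3% lower). GC offsets brought this to 7 of 10, 2 higher and 5 lower, against 61.8% (28.3% higher and 33.5% lower).

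Between the co-cultured and the lone knockout no member was called in edgeR, where 11.4% of all genes were (5.97% higher and 5.4% lower), and 1 member passed at an unadjusted p under 0.05. DESeq2 called RRM2 (0.35, adjusted p = 0.0383), 1 member where it called 3347 of all genes. With GC offsets RRM2 was higher by 0.42 (adjusted p = 0.000833) and DCK by 0.77 (adjusted p = 0.00292), 2 of 10 against 28.8% of all genes (10.8% higher and 18% lower). The offsets moved the median of all genes in this comparison from 0.01 to -0.10. Between the co-cultured and the lone control no member was called, nor any other gene tested (0% called in edgeR and in DESeq2; 540 genes passed an unadjusted p under 0.05, none of them a member). The interaction called 0 members in edgeR, 2 at an unadjusted p under 0.05, against 1.8% of all genes (1.51% higher and 0.286% lower). With GC offsets it called RRM2 higher and no other member, against 7.76% (3.54% higher and 4.22% lower). The comparisons share libraries, so their values are set side by side and not counted as independent.

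On a scale per kb of exon, levels can be set side by side between genes, though only roughly. The length merges all annotated exons of a gene (11261 bases for SAMHD1, 1455 for DGUOK) and can exceed that of the transcript expressed. GC content and overlapping genes also act on each gene, and their part in the order below was not tested. In the lone control DCTPP1 was at 181 ± 51.6 CPM per kb, followed by DGUOK at 70.5 ± 11.4, NT5C at 49.6 ± 14.8, RRM2 at 39.0 ± 4.86 and NUDT1 at 31.2 ± 4.09. NT5M (15.0 ± 4.30) and RRM1 (14.6 ± 3.08) came next, then DCK (5.12 ± 1.72), SAMHD1 (2.21 ± 0.445) and RRM2B (0.633 ± 0.163). From DGUOK to NUDT1, and from NT5M to RRM1, neighbours in this order overlapped in their libraries. In the lone knockout RRM2B, at 4.61 ± 1.31 CPM per kb, lay above DCK (3.06 ± 0.327) and SAMHD1 (1.71 ± 0.157), and RRM1 stood at 12.1 ± 3.64.

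The wider dNTP pathway was read from 9 lists of 94 genes in all, each described by its counts beside the shares of all genes given above. Of 9 genes of deoxynucleoside salvage and breakdown, 3 were higher and 2 lower in the lone knockout, and 3 higher and 4 lower with GC offsets. CDA, which deaminates cytidine and deoxycytidine, rose from 22.2 ± 4.51 to 88.7 ± 14.3 CPM (log2 fold change 2.0, adjusted p = 3.3e-06, and 2.47 with GC offsets). TK1, the cytosolic thymidine kinase, fell from 795 ± 202 to 193 ± 49.7 CPM (-2.04, adjusted p = 2.1e-05), a log2 change that GC offsets reduced to -1.14, still called. Among 13 nucleotide kinases 1 was higher and 5 were lower, against 3 higher and 4 lower with GC offsets. NME3, a nucleoside diphosphate kinase, was at -1.77 (adjusted p = 0.000265), and at -0.64 (adjusted p = 1.5e-05) with GC offsets. None of 5 other nucleotide hydrolases was called in edgeR with TMM scaling, and 2 were higher and 3 lower with GC offsets. NUDT18 was at -0.49 (adjusted p = 0.122) with TMM scaling and at 0.49 (adjusted p = 0.000453) with GC offsets. Of 6 other 5'-nucleotidases 4 were tested (not NT5C1A and NT5C1B), 2 were higher and 1 lower (2 and 0 with GC offsets). NT5E, the cell surface enzyme CD73, rose by 1.83 (adjusted p = 1.1e-05; 1.42 with GC offsets). NT5C2, a cytosolic purine nucleotidase, rose by 0.94 (adjusted p = 0.00111), and by 0.42 (adjusted p = 0.00267) with GC offsets.

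Reductants hand electrons to ribonucleotide reductase through thioredoxin and glutaredoxin. The list held 7 genes of these systems, mitochondrial forms included: TXN, TXNRD1, GLRX, GSR, TXN2, TXNRD2 and GLRX2. In the lone knockout 5 of them were higher and 2 lower (median log2 fold change 0.74). With GC offsets 5 were higher and 1 lower (median 0.47). GLRX, glutaredoxin, rose from 11.6 ± 2.77 to 99.8 ± 7.55 CPM (3.11, adjusted p = 4.9e-08, and 2.7 with GC offsets). Co-cultured knockout cells had less of it than lone ones (64.1 ± 8.57 CPM, log2 difference -0.64, adjusted p = 0.0388, and -0.46 with GC offsets). TXN, thioredoxin, rose from 195 ± 40.0 to 638 ± 86.3 CPM (1.71, adjusted p = 3.4e-06, and 1.20 with GC offsets). Among 11 known regulators of the subunits 2 were higher and 6 lower alone, and 1 higher and 8 lower in co-culture. With GC offsets these were 2 and 7 alone, and 1 and 9 in co-culture. TP73, a p53 family member, was at 44.6 ± 7.95 CPM in the lone control and at 0.487 ± 0.106 in the lone knockout (-6.48, adjusted p = 7.4e-10, and -5.67 with GC offsets). E2F2, a transcription factor of S phase genes, fell from 55.4 ± 6.33 to 13.4 ± 1.89 CPM (-2.05, adjusted p = 2.4e-07, and -1.56 with GC offsets). Of 12 genes that keep up mitochondrial DNA 3 were higher and 3 lower (2 and 4 with GC offsets). SLC25A33, a mitochondrial pyrimidine nucleotide carrier, was at -1.67 (adjusted p = 9.0e-06) and TWNK, the mitochondrial helicase, at -0.76 (adjusted p = 0.000233). With GC offsets they were at -2.07 and -0.56, both called.

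The last lists cover settings in which the subunits are known to be transcribed. Of 15 p53 targets other than RRM2B, 11 were higher and 1 lower in the lone knockout, and 15 were higher in the co-cultured knockout against its control. With GC offsets these counts were 13 higher and 0 lower alone, and 15 higher in co-culture. TP53I3 went from 64.2 ± 11 to 622 ± 78.9 CPM alone (3.27, adjusted p = 3.4e-08, and 3.85 with GC offsets). CDKN1A, the p21 inhibitor of cyclin-dependent kinases, went from 214 ± 41.4 to 1130 ± 164 CPM (2.40, adjusted p = 8.7e-07, and 2.95 with GC offsets). Between the co-cultured and the lone knockout 6 of the 15 targets were higher and 0 lower (7 and 2 with GC offsets), while RRM2B was not called. Without co-cultured knockout replicate 3, 8 were higher and 3 lower, and RRM2B was lower, as given above.

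Of 16 genes of S phase and proliferation, 8 were lower and 0 higher in the lone knockout, and 12 lower and 1 higher in the co-cultured one. With GC offsets 11 were lower and 0 higher alone, and 14 lower and 1 higher co-cultured. MCM3, a subunit of the replicative helicase, fell from 271 ± 10.3 to 103 ± 4.88 CPM (-1.40, adjusted p = 1.3e-06) and MCM2 from 444 ± 107 to 118 ± 21.8 CPM (-1.92, adjusted p = 9.6e-06). With GC offsets they were at -1.40 and -1.36. Between the co-cultured and the lone knockout 5 were lower and 1 higher, against 11 lower and 2 higher with GC offsets. The interaction called 1 lower and 0 higher, and 9 lower and 0 higher with GC offsets. Without co-cultured knockout replicate 3 the list had 9 lower and 2 higher alone, since all libraries share the estimate of spread, and 13 lower and 1 higher in co-culture. RRM2 was set against this list after the values were seen. The log2 of its CPM minus the mean log2 CPM of the 16 genes was 1.30 ± 0.207 in the lone control, 1.41 ± 0.0609 in the co-cultured control and 1.49 ± 0.0873 in the lone knockout. It was 2.35 ± 0.0908 in the co-cultured knockout, above all other libraries. Within culture the knockout was 0.56 higher (exact permutation p = 0.015), but on values corrected for GC the difference was 0.42 (exact p = 0.06), so it did not hold in both.

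**Figure D4:**
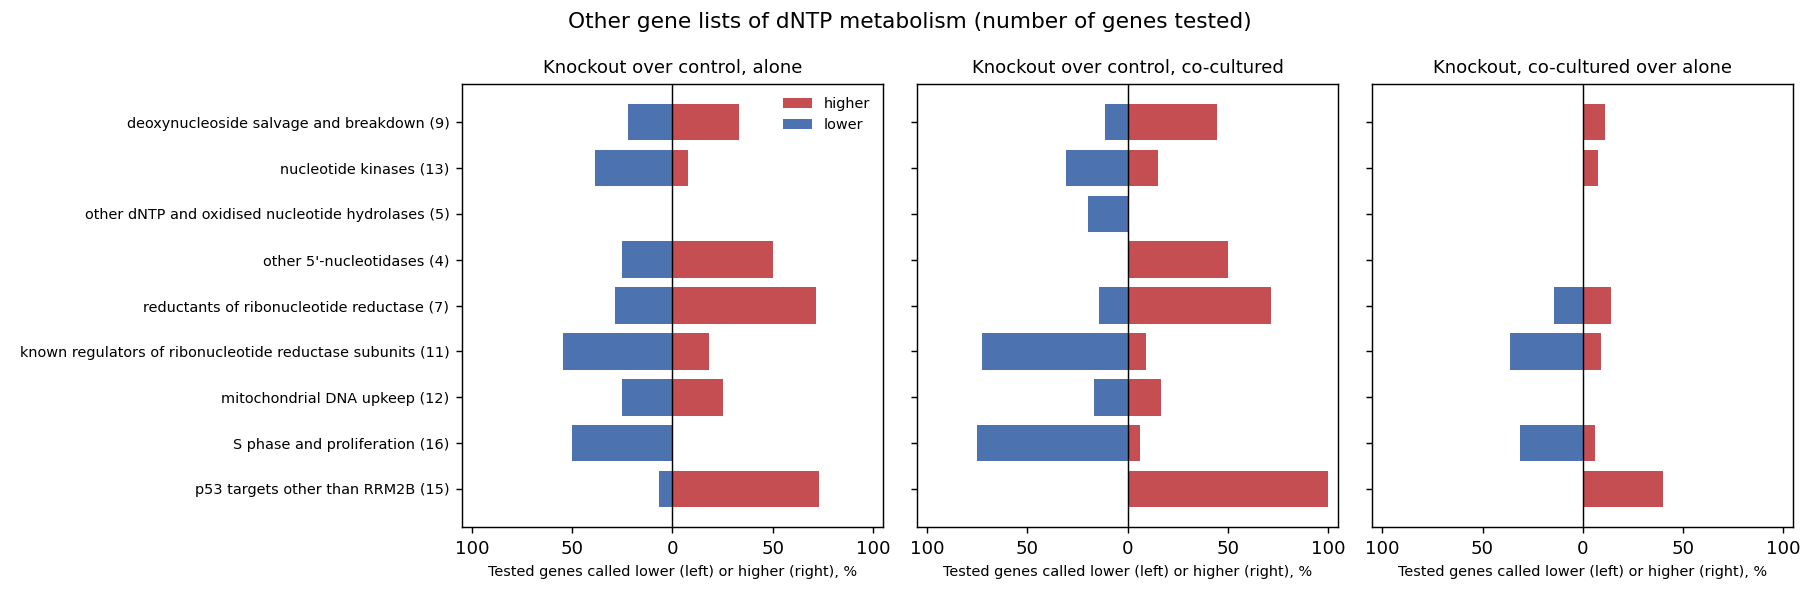
Share of tested genes called lower (bars to the left) or higher (bars to the right) in 9 gene lists, in percent of the genes tested in each list (number in brackets), for 3 comparisons in edgeR with TMM scaling. All 15 p53 targets are higher and 12 of 16 S phase genes lower in the co-cultured knockout against its control, and the lists of salvage enzymes and kinases hold genes called in both directions.

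As a description across the 12 libraries, which share groups, depth and the GC trend, some of the 10 genes had like profiles of log2 CPM. Pearson's r was 0.971 between DCTPP1 and NUDT1, 0.947 between DCTPP1 and NT5C, and 0.738 between RRM1 and RRM2. RRM2B ran opposite to NUDT1 (r = -0.922) and to DCTPP1 (r = -0.904), and its r with RRM1 was 0.0065. Among 10255 genes with a symbol and a mean of at least 5 CPM, those most like RRM2B were GALNT1 (0.989), COPS8 (0.983) and CEMIP2 (0.981). For RRM1 they were PLRG1 (0.941), OAT (0.937) and DSN1 (0.936), and for RRM2 ASH2L (0.931), ZNF407-AS1 (0.926) and ABHD3 (0.907).

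Exons of several members overlap another gene in GENCODE 29, and the strand setting of the counting is not given in the sources used here. DCTPP1 shares 666 bases with ZNF771 on the other strand, SAMHD1 1159 with TLDC2, RRM1 63 with RRM1-AS1, DGUOK 62 with DGUOK-AS1, and NT5C 913 with AC022211.4 and 41 with ARMC7. DCK shares 199 bases with MOB1B on the same strand, and RRM2 1077 with AC007240.1, which has no row in the table. TYMS shares 967 bases with ENOSF1 on the other strand. Reads from these stretches cannot be assigned with certainty.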

How the data were processed

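The authors deposited 1 table of raw read counts by Ensembl gene, with 61541 genes and 12 libraries. Total RNA came from miRNeasy columns and was sequenced from NEBNext Ultra RNA libraries, per the labels' protocols. STAR 2.7.9a, featureCounts, DESeq2 1.36.0, R 4.2.1 and the builds GRCh38 and hg38 are named, per the submitters' processing notes, with no role or order. The annotation and the strand setting are not given in the sources used here. No count was altered. For 42045 identifiers a symbol was found, and positions, exon lengths and GC came from GENCODE 29 (58366 identifiers).

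The counts were tested in R 4.3.3 with edgeR 4.0.16: filterByExpr kept 16768 genes, library sizes were scaled by TMM, and 1 model of 4 group means was fitted to all 12 libraries (quasi-likelihood F-test, robust). Benjamini-Hochberg adjustment ran over the 16768 genes of a comparison, with a threshold of 0.05. The biological coefficient of variation was 22.1%. A level of 1 CPM is 16.2 to 33.6 counts, so low genes such as RRM2B in control cells are limited by counting error as well. No pair of replicates agreed within sampling noise. CPM values are TMM-scaled. GC offsets were loess fits, on transcript GC, of each library's deviations from the gene's mean over all libraries, not from its group mean. Ratios per kb (prior of 0.5 counts) went into exact permutation tests (two-sided) that kept labels within a culture.

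Each library's group came from its label. Replicate numbers are shared between groups, but 8 of 18 same-numbered pairs deviated together at a correlation over 0.1 (range -0.863 to 0.785), so the numbers were not taken to pair libraries. In the lone control, co-cultured control and lone knockout the GC trend did follow the number. Replicate 1 stood at -0.762, -0.621 and -0.689, and replicate 3 at 0.749, 0.741 and 0.691. In the co-cultured knockout replicates 1 and 3 ran the other way (0.538 and -0.840). Named were the 10 members, TYMS, marker genes, the 2 genes of each list with the smallest p in lone knockout against lone control (some are not reported here), and the 3 genes most like each subunit. Members and lists were chosen with earlier results of these data known. Alternatives were DESeq2 1.42.0, library size without TMM, no filter on low counts, only the 2 groups compared, the replicate block, GC offsets, both together, a test against 1.5-fold, and each library left out. The fit was tested on simulated data.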

Additional observations from a re-analysis of the deposited data

Results flagged for a closer look

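CDKN1A, the p21 inhibitor and a p53 target like RRM2B, was flagged because its response to co-culture differed between knockout and control cells. Its level was 214 ± 41.4 CPM in the lone and 198 ± 22.4 in the co-cultured control, and 1130 ± 164 CPM in the lone and 2516 ± 537 in the co-cultured knockout (n = 3 each). The interaction was 1.26 on the log2 scale (1.265 before rounding; edgeR adjusted p = 0.0402), and 0.82 (adjusted p = 0.000187) with GC offsets. For RRM2B the interaction was -0.77 (SE 0.72, adjusted p = 0.545). Only the members and the named genes were screened for this flag. Of the 15 p53 targets other than RRM2B, CDKN1A among them, the interaction called 4 higher and 0 lower (7 and 1 with GC offsets). Of all genes tested it called 1.51% higher and 0.286% lower (3.54% and 4.22% with GC offsets).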

How the results depend on the processing

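RRM2B, SAMHD1, DCK, DCTPP1 and NUDT1 kept their direction in knockout against control, in both cultures, under every alternative run. SAMHD1 in co-culture was also called in all of them, whereas the calls of DCK depended on the fit. The test against a 1.5-fold change left DCTPP1 and NUDT1 uncalled in co-culture, and DCK and NT5C uncalled alone. That test left 3 members called alone and 2 in co-culture, where the main fit called 5 and 4. Apart from DESeq2, shares of all genes called are given only for the main fit and GC offsets. Counts of members or listed genes in any other fit, here and above, thus have no background beside them and are no result about those genes. GC offsets moved the number of members called to 9 alone, 7 in co-culture, 2 between co-cultured and lone knockout and 1 in the interaction. They turned the sign of NT5C (0.33), NT5M (0.55) and NUDT18 (0.49) in the lone knockout, all called. They also turned uncalled values: DCTPP1 (-0.30), NUDT1 (-0.25) and NT5C (-0.10) between co-cultured and lone knockout, DGUOK (-0.21) and NT5C (0.081) in co-culture, RRM1 (-0.063), RRM2 (-0.053) and NT5C (0.15) between the controls, and DCTPP1 (-0.27), NUDT1 (-0.19) and NT5C (-0.25) in the interaction. With GC correction the log2 ratio of DCK to DGUOK was -0.76 (adjusted p = 0.00833, exact permutation).

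The replicate block changed no member's call. Replicate block and GC offsets together called 9 members alone, 7 in co-culture, 3 between co-cultured and lone knockout and 1 in the interaction. The call gained over GC offsets without the block was DCTPP1, lower in the co-cultured than the lone knockout (-0.29, adjusted p = 0.0453), where TMM scaling gave 0.0081. With this block, NT5C (0.33), NT5M (0.56) and NUDT18 (0.49) in the lone knockout, DCTPP1 (-0.29), NUDT1 (-0.24) and NT5C (-0.10) between the knockout groups, DGUOK (-0.21) and NT5C (0.078) in co-culture, RRM1 (-0.068), RRM2 (-0.053) and NT5C (0.15) between the controls, and DCTPP1 (-0.27), NUDT1 (-0.18) and NT5C (-0.25) in the interaction had turned sign.

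Library size in place of TMM turned only values near 0: DGUOK alone (0.077), DCTPP1 between the knockout groups (-0.054), and RRM1 (-0.049), DGUOK (-0.022) and DCTPP1 (-0.049) in the interaction. Without a filter RRM2 in co-culture was at 0.014 and 1 member (NT5M) was called in the interaction. Fitting the 2 groups alone gave DCTPP1 a value of -0.0026 between the knockout groups. DESeq2 called 1 member there. The cause of these changes was not tested.

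Leaving out 1 library at a time gave 0 to 3 members called in the interaction and 0 to 2 between the knockout groups. The log2 ratios ranged from -0.79 to -0.43 for DCK to DGUOK, -0.015 to 0.23 for RRM2 to RRM1 and -0.56 to -0.36 for SAMHD1 to RRM1. Sign changes were seen in uncalled values. Alone DGUOK ran from -0.19 to 0.017. In co-culture RRM1 ran from -0.61 to 0.018, RRM2 from -0.17 to 0.011 and DGUOK from -0.12 to 0.13. Between the knockout groups the ranges were -0.29 to 0.35 (RRM1), -0.17 to 0.17 (DCTPP1) and -0.12 to 0.25 (NUDT1). Between the controls they were -0.12 to 0.17 (RRM1), -0.038 to 0.14 (RRM2), -0.20 to 0.27 (RRM2B), -0.066 to 0.41 (DCK), -0.28 to 0.13 (DCTPP1) and -0.39 to 0.042 (NT5C). In the interaction they were -0.34 to 0.30 (RRM1), -0.11 to 0.43 (DCK), -0.026 to 0.22 (DGUOK) and -0.13 to 0.29 (DCTPP1).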
